A study of Caenorhabditis elegans with 2 samples.

Results

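The mitochondrial ribosomal protein genes of Caenorhabditis elegans were taken as the nuclear protein-coding genes whose symbol starts with mrpl- or mrps- followed by a digit. This gave 70 genes of 19973, 41 named for the large and 29 for the small subunit. Each gene was given a window from 2000 bp upstream of its annotated 5' end to its 3' end, and a peak was assigned to every gene whose window held its summit. The peaks came from chromatin immunoprecipitation and sequencing (ChIP-seq) in 1 group of 2 biological replicates of whole late embryos. The labels give an age of 2.5 hours, synchronisation by egg bleaching, and the strain RW12259, in which unc-3 was tagged as unc-3::TY1::EGFP::3xFLAG by a CRISPR insertion. Both replicates carry the tag, and no untagged or input library was used here, so peaks here are sites of enriched chromatin and not proof of binding by UNC-3. The antibody is given as anti-GFP in the description and as unc-3 in the antibody field. The labels write the tagged allele with chromosome II. Whole embryos were used, so a peak cannot be given to a cell type.

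The mitochondrial ribosome translates the few messages encoded by mitochondrial DNA, which specify core subunits of the respiratory chain and of ATP synthase. Its protein subunits are encoded in the nucleus, made in the cytosol and imported, some as relatives of bacterial ribosomal proteins and others found only in mitochondria. These genes are active in most cell types, and in this worm knockdown of mrps-5 is known to extend lifespan. UNC-3, a transcription factor of the COE family (after Collier, Olf and EBF), is best known for switching on the genes of cholinergic motor neurons. The rule by symbol leaves out subunits under other names, such as dap-3, the worm relative of the mammalian small subunit protein DAP3.

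Few of these genes had a reproducible peak, as was so for genes in general. None had one within 500 bp of its own 5' end, where 1.55% of all genes had one. In the conservative list, 631 peaks that passed a limit on reproducibility between the replicates, 4 of the 70 genes had a summit (5.71%, 95% Clopper-Pearson interval 1.58 to 14), against 3.59% of all genes. They were mrps-28, mrpl-23, mrpl-15 and mrps-6. Among genes whose window length lay within 10% of each member, the mean share was 3.00%, which would give 2.1 of 70 genes. That share lies inside the interval. All 4 summits lay more than 500 bp upstream, against 32.3% of all pairs of a gene and a conservative summit. Of the 4, 3 lay within 45 bp of a small nucleolar RNA (snoRNA) gene inside an intron of a neighbouring gene. Of all 631 conservative peaks, 34.5% lay within 500 bp of a short RNA gene, meaning one for a tRNA, snoRNA or small nuclear RNA. Of all pairs of a gene and a conservative summit, 28% did, against 3 of the 4 here. The distance of 45 bp and snoRNA genes alone were not compared over all peaks. Here and below the intervals cover counting error over genes only, and neighbouring genes and genes of 1 library are not independent.

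The strongest peak belonged to mrps-28 (WBGene00012830, chrV:19644239-19645676, plus strand), which is named for a small subunit protein. The peak at chrV:19643100-19643363 had a signal of 173 in the conservative list, where it ranked 63 of 631. The overlapping ranked peak had a signal of 104.75 in replicate 1 and 69.2 in replicate 2, and the thresholded list of each replicate held it too. Its summit lay 1007 bp upstream of mrps-28, in an intron of Y43F8C.7, whose 5' end lies 209 bp from that of mrps-28 on the other strand. The snoRNA gene Y43F8C.22 (chrV:19643050-19643187, minus strand) overlapped the peak, and the summit lay 45 bp from it. The signal is the authors' measure of peak strength, with no definition in the sources used here, and values from lists of both replicates and of 1 replicate are on different scales. The sequence of this peak (ce11, plus strand) is shown because it carries the highest signal among the 70 genes. Capitals mark the reverse complement of GTTCGA, letters known from the B box, the internal promoter element of tRNA genes.
mrps-28: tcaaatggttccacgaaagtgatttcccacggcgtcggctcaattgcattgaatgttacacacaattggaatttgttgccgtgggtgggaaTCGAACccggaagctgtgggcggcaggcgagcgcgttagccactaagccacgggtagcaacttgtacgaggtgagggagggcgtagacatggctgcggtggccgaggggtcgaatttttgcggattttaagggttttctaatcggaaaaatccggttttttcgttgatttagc

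The peak of mrpl-23 had a like setting. mrpl-23 (WBGene00020348, chrI:6211270-6211885, minus strand) is named for a protein whose bacterial relative L23 lies at the exit of the ribosome's peptide tunnel. Its peak at chrI:6212728-6212991 had a signal of 125 in the conservative list, rank 136 of 631. The signal was 81.3 in replicate 1 and 45.0 in replicate 2, and both thresholded lists held the peak. The summit lay 975 bp upstream, in an intron of fars-1, a phenylalanyl-tRNA synthetase gene that ends 96 bp before mrpl-23 on the same strand. It lay 36 bp from the snoRNA gene T08B2.13 (chrI:6212696-6212824, minus strand).

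The remaining peaks were weaker. mrpl-15 (WBGene00022373, chrI:1436279-1441334, plus strand) is named for a relative of a bacterial large subunit protein. Its peak at chrI:1435510-1435773 had a signal of 73.5, rank 391 of 631. Replicate 1 gave 29.98 and replicate 2 gave 41.0 there, and of the single replicates' thresholded lists that of replicate 2 held it and that of replicate 1 did not. This was the intergenic one of the 4, 637 bp upstream of mrpl-15, and the nearest short RNA gene lay 8865 bp away. mrps-6 (WBGene00020037, chrI:4173758-4174774, minus strand) is named for a relative of the bacterial small subunit protein S6. Its peak at chrI:4175832-4176095 had a signal of 58.5, rank 570 of 631. Replicate 1 gave 31.4 and replicate 2 gave 27.55, and neither thresholded list of a single replicate held it. Nor did the other thresholded or the other ranked list that the authors deposited for both replicates have a summit in its window. The summit lay 1190 bp upstream of mrps-6 in an intron of rpn-8, a proteasome subunit gene whose 5' end was closer, at 645 bp. The snoRNA gene R12E2.17 (chrI:4175997-4176064, plus strand) was 33 bp away.

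Short RNA genes thus lay beside most of the conservative peaks in these windows. Without summits within 500 bp of such a gene, 1 of 70 windows held a conservative summit (1.43%), against 2.18% of genes of similar window length and 2.57% of all genes. A short RNA gene lay in the windows of 6 of the 70 genes (8.57%, against 3.44% at similar length and 4.35% of all genes). Of these 6, mrps-6, mrpl-23 and mrps-28 had a conservative summit and mrpl-46, mrps-2 and mrpl-4 had none. That is 50.0%, but of 6 genes only, against 27.8% of all genes with a short RNA gene in the window. No interval is given for the shares in this paragraph, and whether they set the members apart was not tested. Among members with no short RNA gene in the window, 1.56% had a conservative summit, against 2.49% of such genes in all. The part of the short RNA genes in these peaks was not tested.

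Each replicate alone gave a like count of peaks past its own threshold. The thresholded list of replicate 1 had a summit in 3 of 70 windows (4.29%, 0.893 to 12), against 1.72% of genes of similar length and 2.06% of all genes. The 3 genes were mrps-28, mrpl-23 and mrps-35. The thresholded list of replicate 2 had a summit in 3 windows as well (4.29%, 0.893 to 12), those of mrps-28, mrpl-23 and mrpl-15, against 1.71% at similar length and 2.06% of all genes. Only mrps-28 and mrpl-23 were in both. The other thresholded list of both replicates, with 622 peaks, had a summit in 3 windows (4.29%, 0.893 to 12), those of mrps-28, mrpl-23 and mrpl-15, against 3.00% at similar length and 3.52% of all genes.

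In the longer ranked lists, most members had a summit, as most genes did. A ranked list holds every candidate peak before the threshold on reproducibility. The main ranked list of both replicates, with 30297 peaks, had a summit in 52 of 70 windows (74.3%, 62.4 to 84.0), against 57.6% of genes of similar window length and 64.6% of all genes. In the ranked list of replicate 1 the count was also 52 (74.3%, 62.4 to 84.0), against 68.1% at similar length and 74.1% of all genes. In that of replicate 2 it was 58 (82.9%, 72.0 to 90.8), against 68.7% at similar length and 74.7% of all genes. The members' share lay above that at similar length in all 3 lists, and that share fell inside the members' interval in replicate 1 but below it in the others. Against all genes, replicate 1 showed almost the same share. The other ranked list of both replicates, with 27217 peaks, gave 51 members (72.9%, 60.9 to 82.8), against 54.1% at similar length and 61.2% of all genes.

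**Figure D1:**
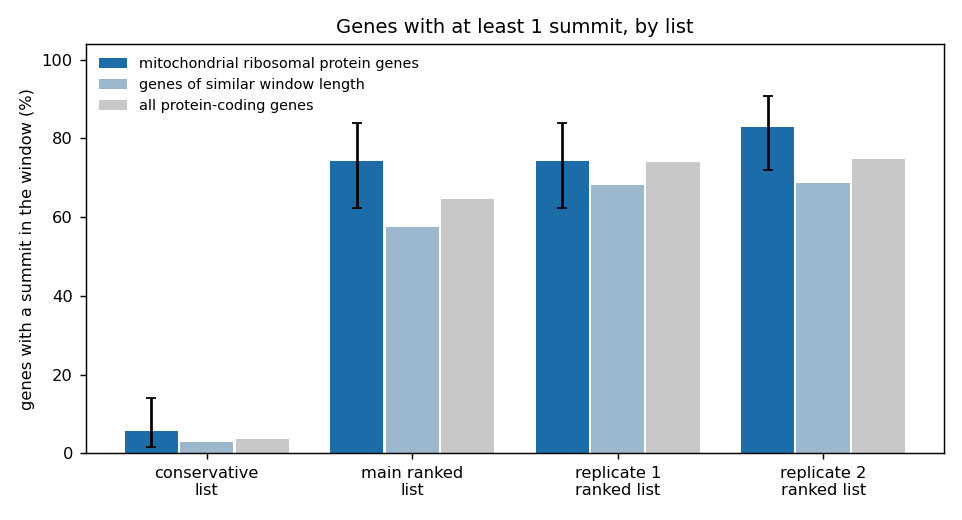
Share of genes (%) with at least 1 summit in the window, for the 70 mitochondrial ribosomal protein genes, genes of similar window length and all 19973 protein-coding genes, in 4 peak lists. Error bars are 95% Clopper-Pearson intervals over the 70 genes. The members stand at 74.3% against 57.6% at similar length in the main ranked list, and at 5.71% against 3.00% in the conservative list.

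The strength of the members' peaks differed little from that of other genes. The median over the 52 members of the strongest signal in the window was 33.2 in the main ranked list, against 30.7 for genes of similar length and 32.1 for all genes with a summit. It was 19.3 in replicate 1, against 17.8 and 18.7, and 17 in replicate 2, against 15.7 and 16.5. The strongest signals in the main ranked list ran between 11.5 and 173, and a gap separated the 4 genes with a conservative summit, at 58.5 or more, from the next, at 49.3. Lowest were mrps-18B at 17.04, mrps-15 at 12.4 and mrps-14 at 11.5. The members with no summit in this list are not part of these medians.

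**Figure D2:**
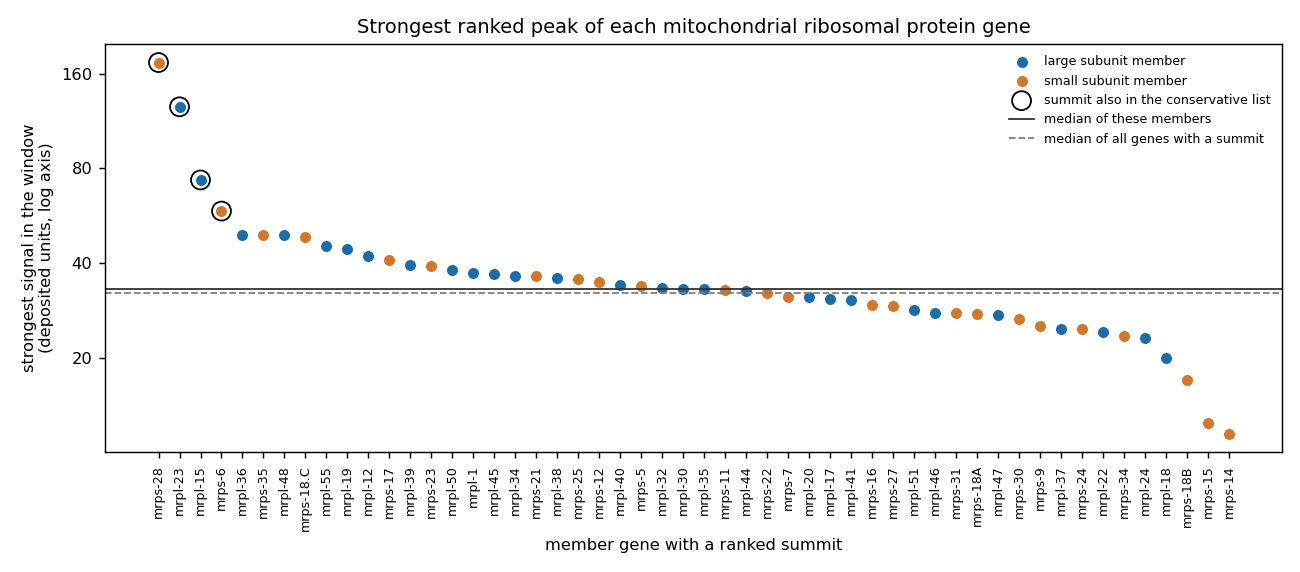
Strongest signal (deposited units, log axis) in the window of each of the 52 members with a summit in the main ranked list, coloured by subunit, with rings around the 4 genes that also have a conservative summit. The 4 ringed genes lie at 58.5 to 173, and the others lie at 49.3 or lower, on both sides of the medians of 33.2 for members and 32.1 for all genes.

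Below the conservative list, the highest member was mrpl-36 at 49.3, named for a relative of a small bacterial large subunit protein. Its peak at chrIII:9849186-9849449 was intergenic, 1202 bp upstream, with 21.2 in replicate 1 and 26.002 in replicate 2. Next was mrps-35 at 49.0, named for a small subunit protein known only from mitochondria. Its peak at chrV:18980201-18980464 lay 973 bp upstream in an intron of sws-1, with 42.5 in replicate 1 and 18.8 in replicate 2. It ranked 312 of 353 in the thresholded list of replicate 1 and was not in that of replicate 2. mrpl-48, also at 49.0, had its peak 1197 bp upstream at chrV:5592377-5592640, 191 bp from the 5' end of vps-37, with 31.4 in replicate 1 and 14.7 in replicate 2. The peak of mrps-18.C at chrII:6734706-6734969 lay 1365 bp upstream of that gene and 99 bp from the 5' end of T14B4.3. Its signal was 48.4, and the replicate signals were 21.6 (replicate 1) and 28.2 (replicate 2). These 4 signals lay within 1 unit of each other, and each gene's replicate signals lay farther apart than that. Then came mrpl-55 at 45.2, whose peak at chrIV:443661-443924 lay 192 bp upstream of its own 5' end. It had 25.6 in replicate 1, and no ranked peak of replicate 2 overlapped it. mrpl-19 at 44.3, named for a relative of a bacterial large subunit protein, had its summit 88 bp upstream, with 19.6 in replicate 1 and 24.9 in replicate 2. Of these 6 genes, mrpl-55 and mrpl-19 had their strongest summit within 500 bp of their own 5' end.

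The sequences of 4 of these peaks (ce11, plus strand) are shown, chosen for short runs of letters that repeat within or between them. The peaks of mrpl-48 and mrpl-19 hold neither GTTCGA nor GCGCTCC and are not shown. Of the 4 shown here, only that of mrpl-36 holds GTTCGA. Capitals mark GTTCGA and GCGCTCC or its reverse complement, both chosen after the sequences were seen, and in mrps-35 the letters GGGCGCTGC, which the whole peak holds 14 times in tandem. For mrps-35 the stretch shown is the 121 bases around the summit, and the 51 bases at its centre occur at 3 places in the genome. The central 51 bases of the other peaks shown, mrps-28 included, occur at 1 place.
mrpl-36: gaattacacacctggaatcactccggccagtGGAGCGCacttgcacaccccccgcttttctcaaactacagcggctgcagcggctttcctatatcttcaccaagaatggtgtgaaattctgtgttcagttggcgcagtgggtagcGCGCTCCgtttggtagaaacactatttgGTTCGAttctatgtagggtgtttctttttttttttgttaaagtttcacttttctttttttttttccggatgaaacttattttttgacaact
mrps-35: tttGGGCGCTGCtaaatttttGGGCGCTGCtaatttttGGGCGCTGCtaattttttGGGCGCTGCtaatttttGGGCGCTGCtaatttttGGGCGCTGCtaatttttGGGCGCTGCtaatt
mrps-18.C: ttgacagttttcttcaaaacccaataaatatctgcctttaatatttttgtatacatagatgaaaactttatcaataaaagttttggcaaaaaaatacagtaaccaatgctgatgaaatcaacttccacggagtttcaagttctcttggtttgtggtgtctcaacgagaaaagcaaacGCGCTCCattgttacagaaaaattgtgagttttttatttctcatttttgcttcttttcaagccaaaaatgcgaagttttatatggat
mrpl-55: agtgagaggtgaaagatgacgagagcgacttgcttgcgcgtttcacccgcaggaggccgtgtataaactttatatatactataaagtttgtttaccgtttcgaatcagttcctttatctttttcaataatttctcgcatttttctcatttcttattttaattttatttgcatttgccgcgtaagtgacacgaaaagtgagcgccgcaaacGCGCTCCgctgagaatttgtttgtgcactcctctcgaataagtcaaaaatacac

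The COE binding sequence was searched in a strict form only, and it was not found near the members' summits in the main ranked list. TCCCNNGGGA lay within 100 bp of none of 117 member summits, on either strand, against 0.366% of all 30297 ranked summits and 2.38% of the 631 conservative ones. At the share of the ranked list less than 1 such summit would fall among 117, so 0 of 117 cannot be told apart from that share. GAGAGA was at 12.8% of the member summits, against 14.7% of all ranked summits. TGATAA was at 17.9%, against 14.1%, TAATTA at 7.69%, against 6.88%, and CAGCTG at 5.98%, against 4.65%. TTTCAG, the letters of worm splice acceptors, was at 42.7%, against 29.9%. All member summits lie in a gene's window, as did 25127 of the 30297 ranked peaks. The shares over all ranked summits were not limited to those, so the 2 sets are not alike in this. The letters chosen after the sequences were seen, GTTCGA and GCGCTCC, were at 8.55%, against 7.96%, and at 4.27%, against 1.84%, and no test belongs to them. In the conservative list GTTCGA was at 27.4% of all summits and GCGCTCC at 4.91%. Of its summits over 500 bp from a short RNA gene, the shares were 8.72% and 5.33%. Apart from TTTCAG, the shares of the other runs of letters lay within 4 percentage points of those over all ranked peaks.

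The members' ranked peaks lay nearer to 5' ends than those of genes in general, and more of them lay in coding exons. Of 118 pairs of a member and a summit in the main ranked list, made by 117 peaks, 43 lay within 500 bp of the member's own 5' end (36.4%), against 21.2% of all pairs of a gene and a summit. Upstream lay 62.7%, against 39.0%. These shares depend on gene length, since long genes collect more summits downstream. The window of a member had a median length of 3125 bp, against 4027 bp over all genes. The members' own 5' end was the nearest one for 50.0% of the pairs, against 65.5% over all genes, so for the remaining pairs another gene's 5' end was closer. Of the 117 peaks, 39.3% had their summit in a coding exon of any gene, against 30% of the 25127 peaks that lay in any gene's window. Introns held 32.5%, against 39.8%, intergenic sequence 23.1%, against 23.8%, and untranslated exons 5.13%, against 6.34%.

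A fixed stretch around the 5' end, which leaves gene length out and was added after the data were seen, gave a larger share to the members in all 3 ranked lists. Within 500 bp of the 5' end on either side, 34 of 70 members had a summit in the main ranked list (48.6%, 36.4 to 60.8), against 28.3% of all genes. In replicate 1 there were 29 (41.4%, 29.8 to 53.8), against 34.1%, and in replicate 2 there were 36 (51.4%, 39.2 to 63.6), against 34.7%. The share of all genes was below the members' interval in the main ranked list and in replicate 2, and inside it in replicate 1. A summit in that stretch in both replicates was found for 18 members (25.7%, 16 to 37.6), against 17.4% of all genes, and in all 3 ranked lists for 15 (21.4%, 12.5 to 32.9), against 15.5%, both inside the members' intervals. The conservative list had none there (0 of 70, upper limit 5.13%), against 1.55% of all genes. A count of 0 among 70 thus does not separate the members from the rest.

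**Figure D3:**
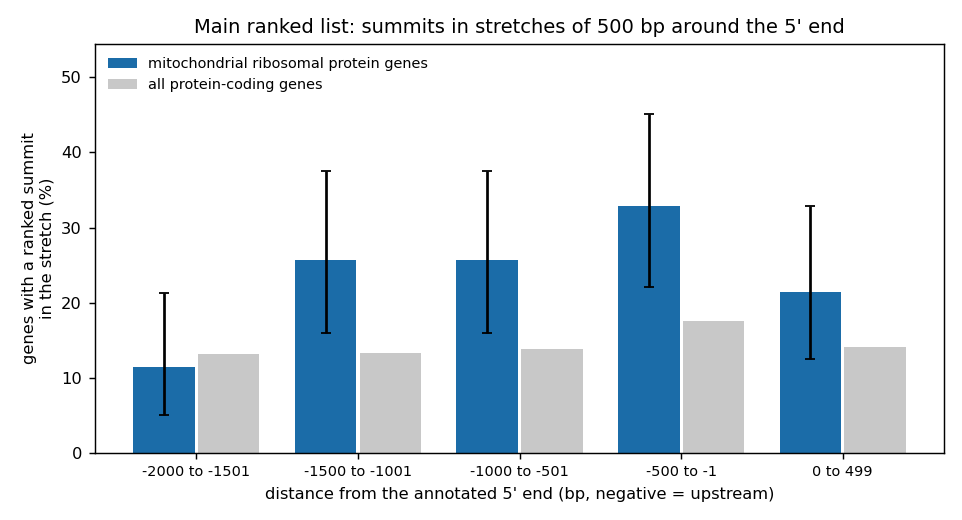
Share of genes (%) with a summit of the main ranked list in each stretch of 500 bp, by distance from the annotated 5' end, for the 70 members and for all protein-coding genes. Error bars are 95% Clopper-Pearson intervals over the 70 members. The members stand at 32.9% against 17.6% in the stretch just upstream, and at 11.4% against 13.2% in the one farthest upstream.

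Further upstream the members' share in the main ranked list was above that of all genes until 1500 bp, and the single replicates did not separate it from theirs. Between 1000 and 501 bp upstream 25.7% of members had a ranked summit, against 13.8% of genes, and between 1500 and 1001 bp upstream 25.7%, against 13.3%, both below the members' interval of 16 to 37.6. In the first of these stretches replicate 1 gave 25.7% (16 to 37.6), against 16.4%, and replicate 2 gave 21.4% (12.5 to 32.9), against 16.6%. In the second, replicate 1 gave 22.9% (13.7 to 34.4), against 16.4%, and replicate 2 gave 25.7% (16 to 37.6), against 16.5%. All 4 of these shares of all genes lie inside the members' intervals. Past 1500 bp replicate 2 gave 22.9% (13.7 to 34.4), against 16.1%, and replicate 1 gave 10% (4.12 to 19.5), against 15.7%. Within 499 bp downstream the share was 21.4%, against 14.1%, which lies inside the members' interval of 12.5 to 32.9. Over the 34 members the strongest summit within 500 bp of the 5' end had a median signal of 27.6 and a range of 3.03 to 45.2, against a median of 29.6 over the 5651 genes with a summit there. The highest were mrpl-55 and mrpl-19, then mrps-17 at 41.0, with its summit 103 bp upstream and peaks of 21.4 in replicate 1 and 18.8 in replicate 2. mrps-17 is named for a relative of the bacterial small subunit protein S17. mrps-23 had 39.1 at 45 bp upstream, with 22.1 in replicate 1 and 17.2 in replicate 2. mrpl-39 had 39.5 at 128 bp upstream, with 25.7 in replicate 2 and no summit there in replicate 1. mrps-17, mrps-23 and mrpl-39 were singled out after their values were seen.

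Many members sit close behind or back to back with another gene. C. elegans genes are often grouped in operons, in which a gene begins shortly after the end of the one before it on the same strand. A same-strand neighbour ended within 500 bp upstream of 29 members or, for 2 of them, overlapped the member's start (41.4%, against 20.1% of all genes). Of these 29, 65.5% (45.7 to 82.1) had a summit in the main ranked list, against 64.9% of all genes so placed. Another 25 members (35.7%, against 17.4% of genes) had a divergent gene with its 5' end within 1000 bp upstream, and 80% of them (59.3 to 93.2) had a ranked summit, against 67.2%. The remaining 16 members (22.9%, against 62.5%) had neither, and 81.2% of these (54.4 to 96) had a ranked summit, against 63.8%. The 5' end of another gene lay in 42 of the 70 windows (60%), against 42.9% of all windows. In each class the share of all genes so placed lies inside the members' interval.

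One pair of members shared a peak, and another pair adjoined without one. mrpl-1 and mrps-24, which lie back to back on chromosome IV, both had in their window the summit of the peak at chrIV:7710168-7710431, with a signal of 24.6. mrps-2 and mrpl-4 are in the same direction on chromosome V, with 106 bp between them, and had no summit in the main ranked list. mrpl-4 had 2 in replicate 1, up to 14.8, and none in replicate 2. mrps-22 begins 106 bp after dap-3, and had a strongest signal of 32.2, with 24.0 in replicate 1 and no summit in replicate 2.

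Genes named for either subunit had peaks. Throughout, the subunit was read from the symbol alone. In the conservative list 2 of 41 large subunit genes had a summit (4.88%, 0.596 to 16.5), against 3.22% at similar length, and 2 of 29 small subunit genes (6.90%, 0.846 to 22.8), against 2.68%. In the main ranked list these were 28 of 41 (68.3%, 51.9 to 81.9), against 58.9%, and 24 of 29 (82.8%, 64.2 to 94.2), against 55.8%. Replicate 1 gave 28 large subunit genes (68.3%), below the 69.2% at similar length and the 74.1% of all genes, and 24 small ones (82.8%), against 66.6% at similar length. Replicate 2 gave 35 large ones (85.4%), against 69.7%, and 23 small ones (79.3%), against 67.2%. The order of the subunits was thus not the same in both replicates, nor in the other ranked list of both, with 32 large (78.0%) and 19 small (65.5%) subunit genes. Their intervals overlap in the main ranked list.

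The 18 members with no summit in the main ranked list were 13 of the large subunit, mrpl-2, mrpl-4, mrpl-9, mrpl-10, mrpl-11, mrpl-13, mrpl-16, mrpl-21, mrpl-28, mrpl-42, mrpl-49, mrpl-53 and mrpl-54, and 5 of the small subunit, mrps-2, mrps-10, mrps-18C, mrps-26 and mrps-33. mrps-18C on chromosome III is a separate gene from mrps-18.C on chromosome II. Of the 18, mrps-2, mrps-33, mrpl-16, mrpl-21 and mrpl-54 had none in either replicate's ranked list too, which is 5 of 70 members (7.14%), against 11.1% of all genes. The other 13 had signals in 1 or both replicates, of which the highest was mrps-10 with 22.2 in replicate 1 and mrpl-49 with 18.1 in replicate 2. The other ranked list of both replicates had a summit in the windows of 6 of the 18 (33.3%, against 22.2% of all genes with none in the main ranked list), mrpl-28 at 31.6, mrps-10 at 30.06, mrpl-2 at 25.1, mrpl-54 at 23.7, mrpl-11 at 21.9 and mrpl-13 at 5.07. That of mrpl-54 lay 53 bp upstream. This left mrps-2, mrps-33, mrpl-16 and mrpl-21 with no summit in any of the 4 ranked lists, 4 of 70 members (5.71%), against 10.6% of all genes. The depth of the libraries is unknown, so how weak a signal could have been found is unknown too.

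Both replicates had a ranked summit in 47 windows (67.1%), against 60.9% of all genes, replicate 1 alone in 5 (7.14%, against 13.2%) and replicate 2 alone in 11 (15.7%, against 13.8%). In 7 windows neither had one (10%, against 12.1%). A summit in both and in the main ranked list was found for 44 members (62.9%), against 53.6% of all genes. Over the 47 genes, the strongest signals correlated with a Pearson r of 0.595 on the log10 scale and a Spearman rho of 0.343, against 0.603 and 0.377 over 12172 genes in all. Without genes with a conservative summit, r was 0.105 and rho 0.158 over 43 members, against 0.329 and 0.26 over 11456 genes. Those genes were chosen for agreement between these replicates, so lower coefficients without them follow in part from the choice. The points share their 2 libraries, and the coefficients are descriptions across genes. The irreproducible discovery rate (IDR) used here is the global one. It estimates the share of irreproducible peaks among those ranked at least as high, not the probability for a single peak. This rate was at or below 0.05 for 4 of the 117 member peaks (3.42%, against 3.80% of all ranked peaks), those of the conservative list. At or below 0.5 it was found for 17 (14.5%, against 14.1%). Outside the conservative list the lowest was 0.145, at mrps-18.C.

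**Figure D4:**
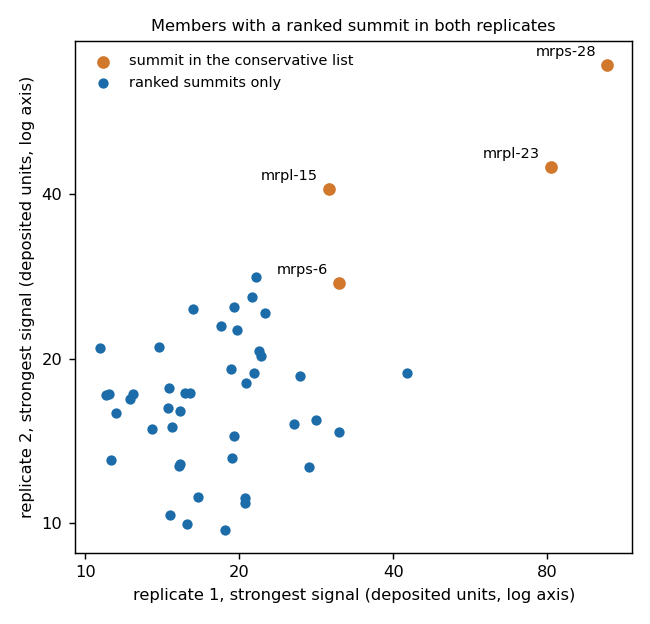
Strongest ranked signal in the window in replicate 1 (x axis) and in replicate 2 (y axis), both in deposited units on log axes, for the 47 members with a summit in both. The 4 genes with a conservative summit, a list chosen for agreement between these replicates, are named. The other 43 lie at 42.5 or lower in replicate 1 and at 28.2 or lower in replicate 2.

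The members were spread over the autosomes, with 15 on chromosome I, 12 on II, 22 on III, 11 on IV and 10 on V, and none on X. Of the 4 conservative summits, 3 were on chromosome I (3 of 15 members, interval 4.33 to 48.1%, against 4.55% of all genes there) and 1 on V (1 of 10, 0.253 to 44.5%, against 2.22%). None of the 22 members on chromosome III had one (upper limit 15.4%), against 5.76% of all genes there. The shares over all genes lie inside these intervals. With similar-length genes from autosomes only, the share in the conservative list was 3.10%, against 3.00% with X included.

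In 4 related gene lists the share with a conservative summit was above the 5.71% of the 70 members. That value lies below the intervals of the cytosolic ribosomal protein and respiratory chain lists. It lies inside the intervals of the other lists, which thus do not set the members apart. Among cytosolic ribosomal protein genes 18 of 81 had one (22.2%, 13.7 to 32.8, against 2.45% at similar length), with the highest signals at rpl-3 (200), rpl-15 (158) and rpl-35 (145), all within 500 bp of their own 5' ends. Among respiratory chain and ATP synthase genes there were 8 of 48 (16.7%, 7.48 to 30.2, against 2.87%), led by the cytochrome c gene cyc-2.1 (136), ucr-11 (112) and cox-5B (112). The summits of cyc-2.1 and ucr-11 lay 1047 and 1318 bp upstream, with the 5' ends of Y17G9B.5 and tre-1 closer. That of cox-5B lay 25 bp upstream. Other genes of mitochondrial gene expression and DNA upkeep, mostly of translation, had 3 of 31 (9.68%, 2.04 to 25.8, against 4.07%), namely the glutamyl-tRNA synthetase gene ears-2 (191), mtss-1 (75.9), for a protein that binds single-stranded mitochondrial DNA, and mma-1 (74.3), the last with its summit 31 bp from a snoRNA gene. Their summits lay 39, 194 and 712 bp upstream, in that order. Genes for mitochondrial import and chaperones had 2 of 28 (7.14%, 0.877 to 23.5, against 3.40%), the import factor gene ddp-1 (138) and the chaperonin gene hsp-60 (78.7). Their summits lay 151 and 618 bp upstream, and for hsp-60 the 5' end of Y22D7AL.10 was closer. Away from short RNA genes the counts were 1 of 70 (1.43%) for the mitochondrial and 15 of 81 (18.5%) for the cytosolic ribosomal protein genes. The remaining lists, in the order above, had 7 of 48 (14.6%), 2 of 31 (6.45%) and 2 of 28 (7.14%). No interval is given for these counts. With all summits counted, the intervals of the mitochondrial ribosomal protein genes and of each other list overlap, the cytosolic one by the least. No test was made between lists.

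**Figure D5:**
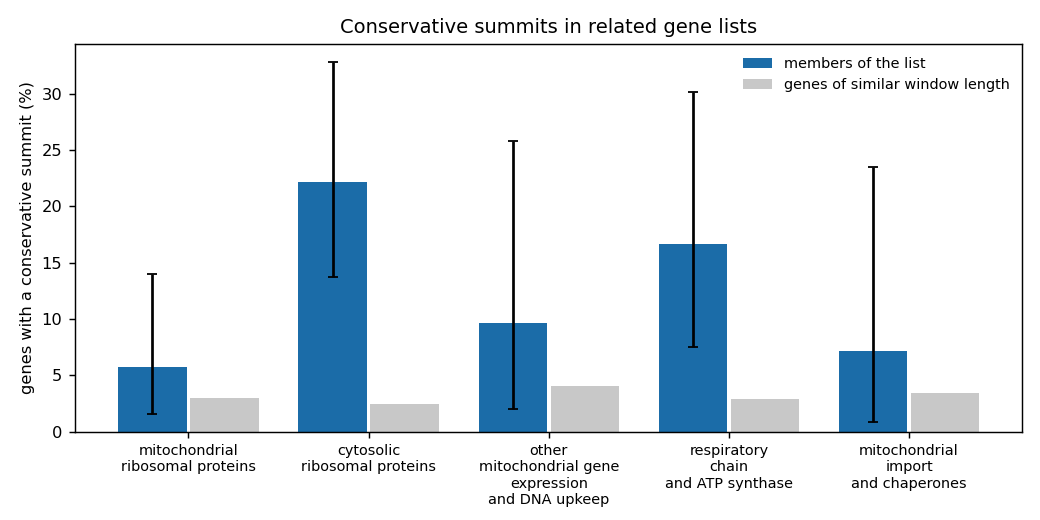
Share of genes (%) with a conservative summit in the window in 5 gene lists, beside genes of similar window length. Error bars are 95% Clopper-Pearson intervals over genes. Mitochondrial ribosomal protein genes stand lowest at 5.71%, and cytosolic ribosomal protein genes highest at 22.2%. The 5.71% lies inside the intervals of the import list and of the list of other mitochondrial gene expression.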

How the data were processed

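The authors deposited peak lists, made on ce11 per the labels. Each peak has a signal value, deposited by the authors without a stated unit, and the ranked lists give a −log10 IDR, as deposited. Aligner and peak caller: not given in the sources used here. Of 8 lists, those of both replicates and those of each replicate were used. The lists hold no read counts, so depth is unknown. Chromosome names and the extent of peaks fitted WBcel235. Genes came from Ensembl release 115, sequences from the RefSeq genome of the same assembly. Coordinates are 1-based. Mitochondrially encoded genes were left out. A 5' end is the annotated gene end, in this worm often a trans-splice site.

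Members, lists and rules were chosen with earlier results of these data known, and no test was made. Similar-length shares are means over members of the share among non-members whose window length lay within 10%. Fewest and most such genes were 471 and 4507. Motifs were searched within 100 bp of summits on both strands. Genes are named by rule: every member with a conservative summit, the 10 strongest and 3 weakest in the main ranked list, every member without a summit there, and up to 3 genes from each other list. Genes named outside it are neighbours, or were chosen after their values were seen. For 17 entries of the hand-written lists no gene of that symbol was found. Counting was tested on simulated summits. Python 3.11.15, numpy 2.4.6, pandas 2.3.3 and scipy 1.17.1 were used.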

Additional observations from a re-analysis of the deposited data

How the results depend on the processing

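Of 50 alternatives, 30 kept the direction and stayed within 1.5 times of a count, the interval of a share or the replicate spread of a median, 18 moved it and 2 turned its direction. The 4 members with a conservative summit became 2 among peaks at or above the median signal, with 1000 bp upstream or with the nearest 5' end only, and 0 with 500 bp upstream or within 500 bp of the 5' end. They became 1 without summits within 500 bp, or within 100 bp, of a short RNA gene. The single replicates' lists gave 3 each. The difference from genes of similar length was 2.72 percentage points. It was 0.494 with 1000 bp upstream and 1.09 with the nearest 5' end only. Among peaks at or above the median it was 1.24, and in the other list of both replicates 1.28. These alternatives gave smaller differences in the same direction. The difference was -2.04 with 500 bp upstream and -0.746 without summits near short RNA genes. By their own construction shorter windows lose these peaks, which all lie more than 500 bp upstream. The 52 members with a ranked summit became 33 in a window of 1000 bp that stops at the 5' end (47.1%, against 28% of genes of similar window length). Within 500 bp of the 5' end they became 34 (48.6%, against 28.3% of all genes). Replicate 1 gave 32 in place of 52 among its peaks at or above the median signal. No share over other genes was taken for that count, so it is not a result about the members. The median strongest signal of 33.2 was 35.7 among peaks at or above the median, 30.9 with 1000 bp upstream, 28.6 with 500 bp and 29.2 with the nearest 5' end only. It was 17 to 19.3 in the single replicates, whose signals are on another scale. The share of ranked summits within 500 bp of the own 5' end, 36.4%, was 23.7% within 250 bp and 58.5% within 1000 bp. The short RNA distance of 100 bp, the autosomes, the window that stops at the 5' end and the stretch around it were chosen after seeing the data. No paired analysis was possible because there is 1 group.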
